A study of Mus musculus with 2 samples.

Results

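Gse1 (NCBI gene 382034) held more peaks of N4-acetylcytidine (ac4C) immunoprecipitation than any other protein-coding gene in the mouse uterus data described here. Its members are the 69 peaks, of 21192 in the list, whose summit lies in the RefSeq span of the gene, chr8:120228501-120581383 on GRCm38, a length of 353 kb. The gene was chosen by its number of summits in the list, so that number is a description and no test is attached to it. Wild-type mice gave whole uterus at gestational day 4, from which polyA RNA was made into 1 ac4C immunoprecipitation library and 1 input control library. The method, acRIP-seq, enriches fragments with ac4C by an antibody and sequences them, with the RNA before enrichment as the input. The strain and age of the mice and the number of animals in a library were not given in the sources used here. There were no replicates, so no value below has a replicate check. The whole uterus holds many cell types, and few cells with much Gse1 RNA cannot be told apart from many cells with little.

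ac4C is an acetyl group on cytidine that is written by the acetyltransferase NAT10, first known from ribosomal and transfer RNA and later mapped in mRNA. Gse1, genetic suppressor element 1, encodes a coiled-coil protein that is found in histone deacetylase complexes together with the lysine demethylase LSD1 and the corepressor CoREST. The acRIP-seq fragments are mapped to the genome, so a gene with many peaks is one in which fragments piled up over background at many separate places of its span. The span holds introns as well as exons, and exon positions were not used here.

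The gene table gives Gse1 11 transcripts, and the RefSeq promoter table of GRCm38.p6 gives it the plus strand, so positions below run 5′ to 3′ with rising coordinates. That table holds 3 windows for Gse1, each of 250 bases before a transcript start and 50 bases after it. They are shown because they mark internal starts of the gene. Of the 69 peaks, 0 overlapped any of them. How many windows of other genes overlap a peak was not calculated, so the 0 is not a trait particular to Gse1. The 50 bases after the start are in capitals. The 5′ end of the span itself has no window in the table.
internal start at chr8:120488616-120488915, plus strand: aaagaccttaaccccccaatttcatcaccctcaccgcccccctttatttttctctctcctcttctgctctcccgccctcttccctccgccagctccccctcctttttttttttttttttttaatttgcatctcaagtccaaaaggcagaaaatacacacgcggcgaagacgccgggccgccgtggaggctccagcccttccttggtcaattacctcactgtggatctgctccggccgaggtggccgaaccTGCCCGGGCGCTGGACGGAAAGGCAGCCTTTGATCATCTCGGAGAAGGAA
internal start at chr8:120535607-120535906, plus strand: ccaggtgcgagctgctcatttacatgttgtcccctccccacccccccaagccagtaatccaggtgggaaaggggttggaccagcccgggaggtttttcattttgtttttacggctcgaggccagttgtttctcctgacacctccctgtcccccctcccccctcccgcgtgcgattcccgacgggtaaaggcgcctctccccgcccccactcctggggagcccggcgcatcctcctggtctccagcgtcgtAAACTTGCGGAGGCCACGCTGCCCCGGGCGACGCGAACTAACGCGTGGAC
internal start at chr8:120537159-120537458, plus strand: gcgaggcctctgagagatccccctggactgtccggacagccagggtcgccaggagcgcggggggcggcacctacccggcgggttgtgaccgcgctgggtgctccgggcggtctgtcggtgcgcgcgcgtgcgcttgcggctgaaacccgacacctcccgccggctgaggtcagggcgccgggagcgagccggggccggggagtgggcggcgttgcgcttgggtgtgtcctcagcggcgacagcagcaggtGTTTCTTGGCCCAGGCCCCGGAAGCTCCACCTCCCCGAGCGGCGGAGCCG

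Cytidine made up 24% of the capital bases of the first window, 34% of the second and 42% of the third, against a median of 26% (interquartile range 20 to 32%) over 32851 windows of the table. The pattern CNNCNNCNNCNN, 4 cytidines each followed by a pair of any bases, was searched on both strands with overlaps counted. Over the whole windows of 300 bases, lower case and capitals together, it matched 11, 11 and 9 times on the sense strand. On the other strand it matched 6, 0 and 8 times. Of all windows, 88.1% hold it on at least 1 strand and 69.1% on the sense strand, so its presence is common among windows. The nearest peak to the first of these starts ended 915 bp before it. The other starts lay 24.8 and 26.4 kb after the nearest summit upstream, inside the longest stretch of the gene without a peak.

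The peaks were spread over nearly the whole gene and fell into 3 stretches, separated by peak-free intervals of 51.1 and 51.3 kb. The first stretch held 14 summits between 1.14 and 56.6 kb from the start of the span. The middle stretch held 41 summits, 59.4% of all, between 108 and 283 kb. The last stretch held 14 summits between 334 and 352 kb, on 5.01% of the span. The division follows the longest distances between neighbouring summits and was made after the positions were seen. Together, the 69 peaks covered 28.2 kb, or 8.0% of the span. They made up 0.326% of the list and 4.96% of the peaks on chromosome 8.

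The highest fold enrichments lay near the ends of the gene. The fold enrichment is the authors' value for each peak, the signal at the summit over the background of the peak caller. The sources used here do not say if the input library set that background, so a fold enrichment is not known to be immunoprecipitation over input. Its 95% interval here is the exact Poisson interval of the fragments at the summit, with the background held fixed. It covers the counting error of those fragments only and leaves out that of the background, so it is too narrow. Of the 69 peaks, 8 reached a fold enrichment of at least 10 (11.6%), against 10.02% of all peaks of the list. Peaks of 1 gene share a library and are not replicates, so no interval is given for this share. The share was thus close to that of the list as a whole. Of these 8 peaks, 7 lay in the last stretch and 1 in the first, and 0 of 41 lay in the middle stretch. The closeness of the share to that of the list, and the counts by stretch, depend on the pseudocount of 1 in the fold enrichment. As fragments divided by background alone, 16 of the 69 peaks reached 10-fold, a smaller share than the 35.9% of the list. Of the 16, 3 lay in the first stretch, 4 in the middle and 9 in the last. The median fold enrichment was 4.74 in the first stretch, 4.41 in the middle and 10.4 in the last, and 5.58 over the whole list.

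**Figure D1:**
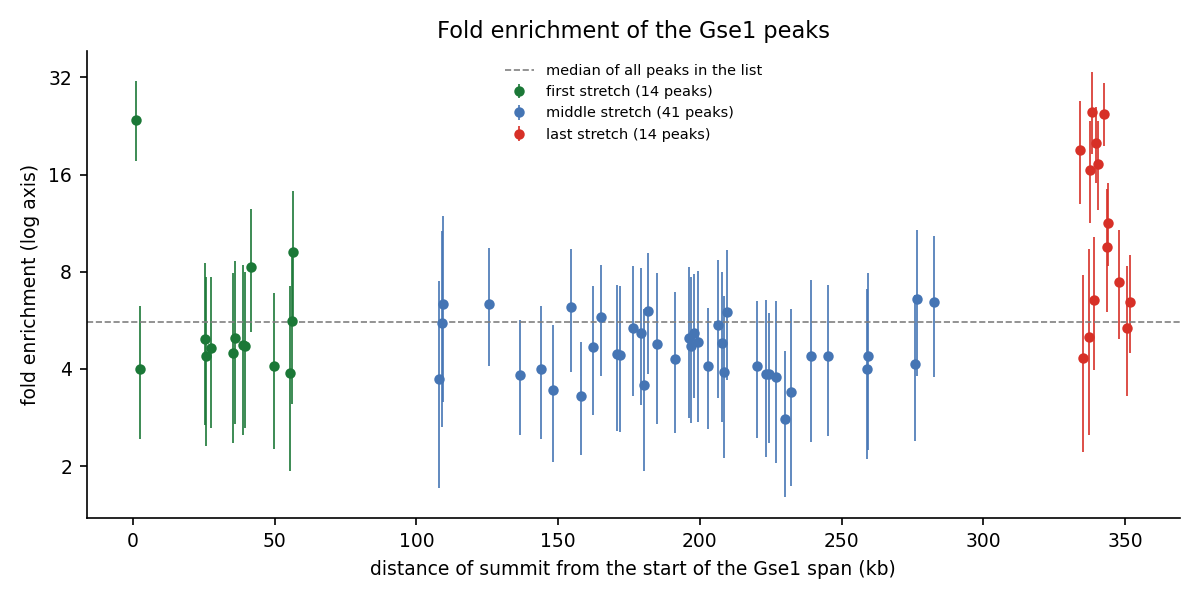
Fold enrichment (log axis) of the 69 Gse1 peaks against the distance of the summit from the start of the gene span in kb. Points are peaks, bars are 95% Poisson intervals of the fragments at the summit, colours mark the 3 stretches and the dashed line is the median of the list at 5.58. The peaks of at least 10-fold sit at 1.14 kb and between 334 and 344 kb, and the 41 middle peaks lie between 2.79 and 6.58.

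The highest value in Gse1 was that of the peak at chr8:120566763-120567097, with a fold enrichment of 25.1 (95% interval 18.5 to 33.2) on 46 fragments over a background of 0.875. The peak at chr8:120570544-120571282 followed at 24.7 (19.7 to 30.7). Its 80 fragments were the most at any summit of the gene. These intervals overlap, so the order of the pair is not settled by the counts. Both belong to the last stretch, 338 and 342 kb from the start of the span.

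The only strong peak outside the last stretch was the 5′-most peak of the gene. It spanned chr8:120229056-120230581, a width of 1526 bp, and its summit lay 1139 bp from the annotated start of Gse1. Its fold enrichment was 23.7 (17.6 to 31.1), on 49 fragments over a background of 1.11. The next peak, whose summit lay 1337 bp further on, stood at 4.00 (2.42 to 6.27), so the values fell steeply over a short distance. No other summit followed for 22.9 kb, the third longest distance in the gene.

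In the last stretch, high and low peaks lay side by side. The peak that opened it, at chr8:120562494-120562803, stood at 19.0 (12.9 to 27.0) over a background of 0.578 fragments, the lowest of that stretch. It was followed by peaks at 4.32 (2.21 to 7.82) and 5.03 (2.49 to 9.38). The next pair rose again, to 16.5 (11.3 to 23.4) and 25.1. A narrow peak of 207 bp at 6.54 (3.96 to 10.3) then stood between the peak at 25.1 and the peak at chr8:120567977-120568552, which reached 19.99 (15.1 to 26.0) on 54 fragments. The intervals of the low peaks did not overlap those of the high ones beside them, so these differences exceed the counting error of the immunoprecipitation.

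Beyond these, 17.3 (12.4 to 23.5) and 24.7 were reached at 341 and 342 kb, followed by 9.51 (5.99 to 14.4) and 11.3 (8.32 to 15.1) at 344 kb. The 7 strong peaks thus lay within 10.1 kb. Toward the 3′ end the values were lower. The last 3 peaks stood at 7.45 (4.96 to 10.8), 5.37 (3.30 to 8.32) and 6.45 (4.48 to 9.03). The final peak, at chr8:120579674-120580998, was 1325 bp wide and ended 385 bp before the annotated end of the gene. It rested on 32 fragments, and its background of 4.11 was the highest of the last stretch. The 3′-most part of the gene was therefore covered by a wide peak of moderate fold enrichment.

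The remaining 12 peaks of the first stretch began 25.4 kb into the gene and were mostly weak. Of the 14 peaks of that stretch, 10 lay below the median of the list. The exceptions beside the 5′-most peak were a peak 632 bp wide at 41.5 kb, with 8.27 (5.20 to 12.6), a peak at 56.0 kb with 5.62 (3.11 to 9.49), and the last peak of the stretch. That one, at chr8:120284882-120285215, stood at 9.19 (5.64 to 14.2) on 18 fragments. It closed a row of 3 peaks within about a kilobase, of which the first, at 55.5 kb, stood at 3.89 (1.93 to 7.25). After it came the peak-free interval of 51.1 kb.

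The middle stretch held many peaks of much the same modest size. Its fold enrichments had an interquartile range of 3.91 to 5.37, and 33 of its 41 peaks lay below the median of the list. The highest were at chr8:120505164-120505431, with 6.58 (3.80 to 10.7), and at chr8:120510907-120511221, with 6.43 (3.78 to 10.3). The latter is the last peak before the interval of 51.3 kb. All 7 strong peaks of the last stretch, and the 5′-most peak, had lower interval bounds above the highest value of the middle stretch. The strong peaks were picked by their fold enrichment, so this is a description and no test. The intervals of the middle peaks reached up to 11.9, above the lowest of those bounds, 8.32. Without the pseudocount the middle stretch reached 19.44, at chr8:120337840-120338179, where the background was 0.411 fragments.

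The 3 weakest peaks of Gse1 also lay in the middle stretch. The lowest, at chr8:120458522-120458905, stood at 2.79 (1.61 to 4.55) on 14 fragments over a background of 4.38. The peak at chr8:120386313-120386712 stood at 3.30 (2.16 to 4.85) on 24 fragments over 6.57, the highest background in the gene. The third, at chr8:120460497-120460755, stood at 3.40 (1.74 to 6.14) on 9 fragments. A low fold enrichment thus occurred both with a high background and with few fragments.

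Over the whole gene, 46 of 69 peaks (66.7%) lay below the median fold enrichment of the list. The intervals of 56 peaks included that median, those of 10 lay above it and those of 3 below it. The same shares over the list were not calculated, so these counts describe the Gse1 peaks only. For most peaks the counts therefore did not place them above or below the typical peak of the list. Low depth and a value near the median were not told apart. In the median peak of Gse1 the interval ran from 58.7 to 161% of the value.

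Behind the summits were a median of 15 fragments (interquartile range 11 to 20), against 22 over the list. The median was 12 in the first stretch, 14 in the middle and 29.5 in the last. The median background was 2.07 fragments in Gse1 and 2.63 over the list. By stretch it was 1.44, 2.36 and 1.53. The higher fold enrichment of the last stretch was thus accompanied by more fragments, while its background was below that of the middle stretch. The last stretch took 35.4% of the 1279 fragments counted at all summits of the gene.

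**Figure D2:**
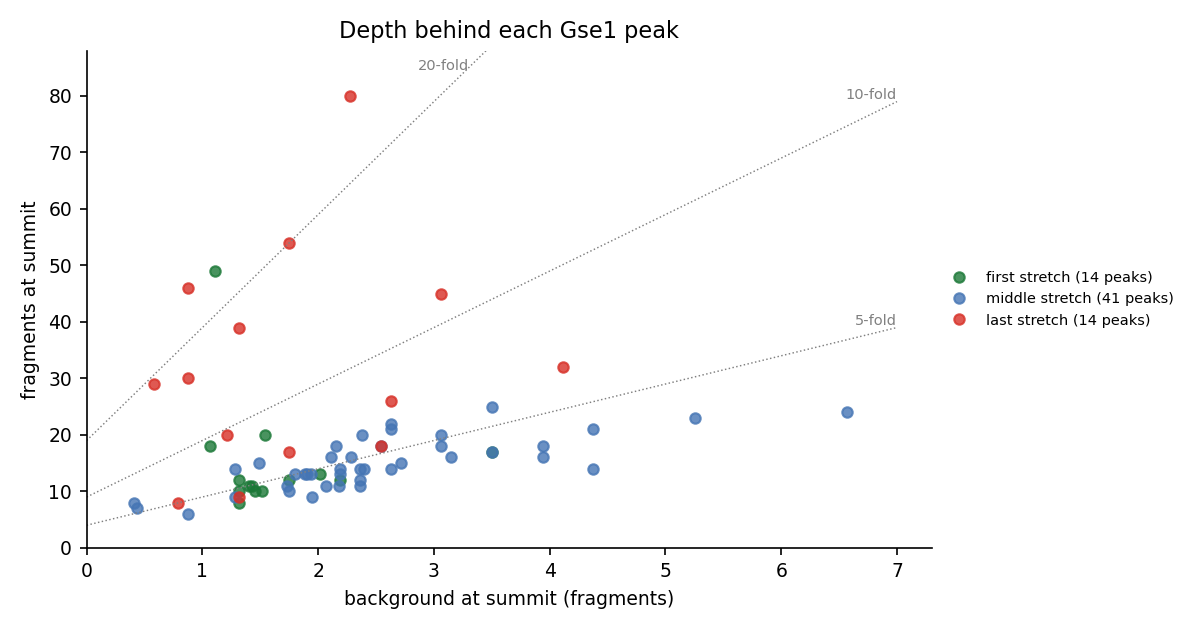
Fragments at the summit against the background at the summit, in fragments, for the 69 Gse1 peaks, with colours for the 3 stretches. Dotted lines join points of equal fold enrichment, at 5, 10 and 20. The middle peaks lie on both sides of the 5-fold line at backgrounds below 4 fragments and below it at the highest backgrounds, up to 6.57, while 7 peaks of the last stretch and 1 of the first lie above the 10-fold line.

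Within the middle stretch, fragments and background rose together (Pearson's r 0.75, Spearman's rho 0.78 over 41 peaks). In the last stretch the values were 0.22 and 0.23 over 14 peaks. These are descriptions across peaks that share a gene, a library and a peak caller, and the background enters the rule by which a peak is called. At the median background of Gse1, 9 fragments, a fold enrichment of 3.26, were needed to reach the weakest p-value of the list. At the highest background, 6.57, the need was 17 fragments or 2.38-fold, and at the lowest, 0.411, it was 4 fragments or 3.54-fold. Weaker enrichment between the peaks was not detectable at this depth.

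Peaks of Gse1 were of ordinary width. The median was 319 bp (interquartile range 245 to 474 bp), against 315.5 bp (229 to 476 bp) over the list. Of the 69 peaks, 29 were at most 300 bp wide. How many peaks of the list were that narrow, or wider than 1000 bp, was not calculated. The smallest width of the list, 200 bp, was shared by 4 peaks (5.80%), against 7.96% of all peaks, and all 4 lay in the middle stretch. In Gse1, 3 peaks were wider than 1000 bp. These were the 5′-most peak, the 3′-most peak, and a peak of 1975 bp at chr8:120382202-120384176. That widest peak had a modest fold enrichment of 6.21 (3.91 to 9.43), on 20 fragments. Over the 69 peaks, width and fragments gave a Pearson's r of 0.37 and a Spearman's rho of 0.39, given as a description.

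Neighbouring summits were a median of 2223 bp apart (interquartile range 941 to 5568 bp). The shortest distance was 427 bp, and 18 of 68 distances were under 1000 bp. The median distance was 1446 bp in the first stretch, 3185.5 bp in the middle and 1140 bp in the last. The last stretch was the densest, with 7.91 peaks per 10 kb and 37.0% of its length under a peak. In the middle stretch these values were 2.35 per 10 kb and 9.20%. No peak touched another, and the smallest clear distance between peak edges was 127 bp. With peaks less than 500 bp apart joined, 54 peaks remained, 9 of them in the last stretch.

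**Figure D3:**
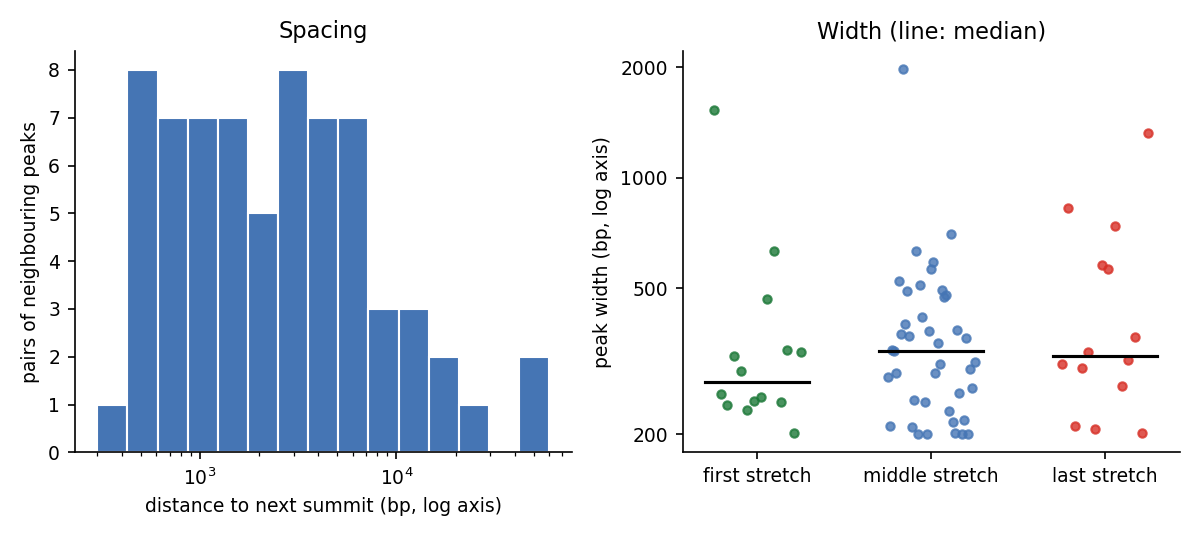
Left, distances between neighbouring summits of Gse1 in bp (log axis), as the number of pairs of neighbouring peaks in each class. Right, width of each peak in bp (log axis) by stretch, with the median as a line; distances run from 427 bp to 51575 bp, and medians of width are 278, 338 and 327 bp.

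Of the 69 summits, 5 also lay in another annotated gene, and 0 in another protein-coding gene. The lncRNA gene Gm32968, on the plus strand like Gse1, held 3 of them, at 108 to 110 kb. They opened the middle stretch, and stood at 3.73 (1.71 to 7.50), 5.56 (2.65 to 10.7) and 6.38 (3.16 to 11.9) on 6, 7 and 8 fragments. Their backgrounds, 0.411 to 0.875 fragments, were the lowest of that stretch. The lncRNA gene Gm51556, on the minus strand, held 2, with 4.00 (2.11 to 7.05) and 4.39 (2.25 to 7.94). The list gives no strand, so fragments of Gse1 and of these genes cannot be told apart there. The microRNA gene Mir7687 and the lncRNA genes 1700016A09Rik and Gm39264, also inside the span, held no summit. Mir7687 and 1700016A09Rik lie in the peak-free interval of 51.3 kb.

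Just outside the span there was no peak. The nearest summit before the span lay 22483 bp upstream, in the lncRNA gene A330074K22Rik, which is transcribed away from Gse1. It stood at 8.53 on 15 fragments. The nearest summit after the span was 75420 bp downstream, in the overlapping genes Emc8 and Gm27021, at 4.84 on 11 fragments. Of the 10 protein-coding genes within 250 kb of either end, 6 held a peak, against 30.6% of all protein-coding genes, and none held more than 5. The single peak of Gm27021 is also that of Emc8. Crispld2, a secreted protein gene, held 5 (0.828 per 10 kb), and Irf8, an interferon regulatory factor, and the palmitoyltransferase gene Zdhhc7 held 2 each. Gins2, a replication factor gene whose span overlaps the 3′ end of Gse1, held 0, as did Cox4i1, a subunit of cytochrome c oxidase. Gse1 itself held 1.96 peaks per 10 kb.

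The protein-coding genes next in number of summits were Hmcn2 with 57, Hspg2 with 52, Lrp1 with 49 and Zmiz1 with 44. Of 21900 protein-coding genes, 30.6% held a summit and 1.37% held 10 or more. Hmcn2 encodes a hemicentin of the extracellular matrix, Hspg2 the basement membrane proteoglycan perlecan, Lrp1 an endocytic receptor and Zmiz1 a transcriptional coactivator. No test was possible between these genes with 1 library of each kind, so their values are set side by side. Per length, Gse1 had the fewest peaks of the 5, at 1.96 per 10 kb, against 2.11 in Zmiz1, 3.89 in Hmcn2, 5.10 in Hspg2 and 5.90 in Lrp1. Its median fold enrichment, 4.83, was also the lowest, against 5.11, 6.27, 6.98 and 5.29 in the same order. Its highest peak, 25.1 (18.5 to 33.2), stood above theirs, which were 13.0 (10.2 to 16.4), 16.7 (12.3 to 22.3), 15.3 (11.4 to 20.1) and 11.2 (8.91 to 14.0). That interval overlapped those of Hmcn2 and Hspg2 and lay above those of Zmiz1 and Lrp1.

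To compare layouts along the gene, the span was divided into 10 equal bins. Bin 6 of Gse1 held the most summits, 15, all below 10-fold, and bin 10 held 14, of which 7 were at least 10-fold. Zmiz1 had a like share in bin 10. That bin held 13 of the 44 Zmiz1 summits, and 8 of the 9 peaks of at least 10-fold lay there, while bin 6 held 1 summit. In Hmcn2 the same bin held 1 of 6 such peaks, in Hspg2 1 of 12 and in Lrp1 0 of 3. Strong peaks in bin 10 were thus found in Zmiz1 as well as in Gse1, where they lay before the last 3 peaks of the gene.

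**Figure D4:**
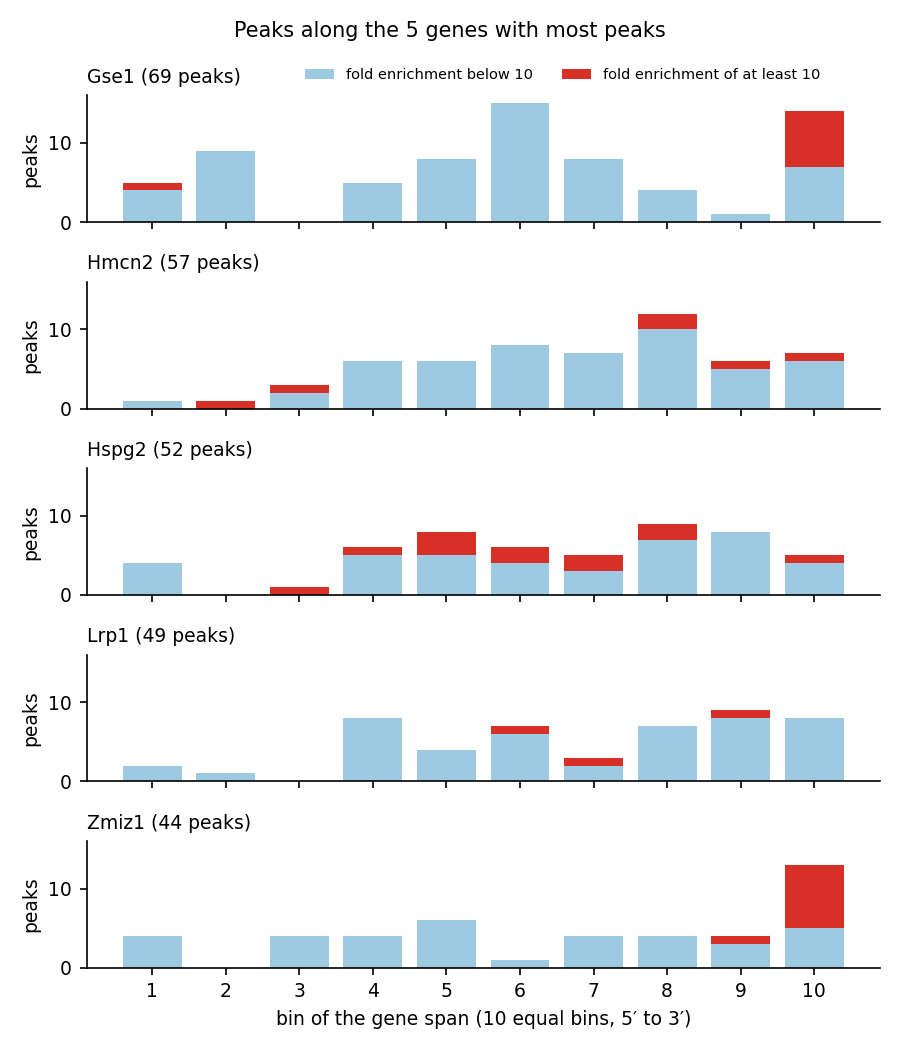
Number of peaks in each of 10 equal bins of the gene span, 5′ to 3′, for Gse1 and the 4 protein-coding genes next in number of peaks; red marks peaks with a fold enrichment of at least 10. In Gse1, 7 of the 8 red peaks are in bin 10, and in Zmiz1 8 of 9.

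The lead of Gse1 in number rested on its weaker peaks. A −log10 q of at least 10 was reached by 15 of its 69 peaks (21.7%), against 45.2% of the list. Of the 15, 10 lay in the last stretch, 3 in the first and 2 in the middle. Counted with that limit, Gse1 ranked 21 among protein-coding genes, behind Hspg2 with 41 and Lrp1 with 39. With peaks at or above the median fold enrichment of the list it kept 23 peaks and ranked 4.

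Genes of like length held far fewer peaks. The 5 protein-coding genes with a peak that were nearest to Gse1 in span, between 350 and 355 kb, were Vwa8 with 1 peak, Arid1b with 17, Fto with 3, Fbxl7 with 4 and Ano2 with 1. Arid1b, a subunit of the BAF chromatin remodelling complex, reached 18.5 (13.9 to 24.2) at its highest peak, which overlaps the interval of Gse1. Fto, an RNA demethylase gene, reached 7.20 (5.27 to 9.61).

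Among genes of the CoREST and LSD1 complexes, 8 of 10 held a peak (80.0%), against 30.6% of all protein-coding genes, and none held more than 3. The demethylase gene Kdm1a, which encodes LSD1, held 2, the highest at 8.65 (5.38 to 13.3). The corepressor genes Rcor1, Rcor2 and Rcor3 held 1, 3 and 3, with highest values of 5.85 (4.08 to 8.14), 8.47 (5.06 to 13.4) and 7.53 (4.89 to 11.1). The deacetylase gene Hdac1 held 2, with 4.26 (3.01 to 5.88) at most, and Hdac2 held 0. Phf21a, whose product reads unmodified histone H3 tails, held 2 and gave the highest value among these genes, 11.3 (8.32 to 15.1). The high mobility group gene Hmg20b held 2, with 9.41 (6.40 to 13.4) at most. The zinc finger genes Zmym2 and Zmym3 held 0 and 1, the latter at 3.55 (2.09 to 5.72). Transcript abundance was not matched between these genes and others, and a gene without a peak is not shown to lack the mark.

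As a check of the tissue label, peaks were present in 5 of 5 uterine genes (Pgr, Esr1, Hoxa10, Hoxa11, Wnt4), 4 of 4 smooth muscle genes and 3 of 4 epithelial genes, of which Epcam held 0, against 30.6% of all protein-coding genes. Both endothelial genes, Pecam1 and Cdh5, held peaks, as did 1 of 2 leukocyte genes and 0 of 2 erythroid genes. A peak shows fragments over background and is no measure of a transcript's level, so which of these cell types gave the Gse1 fragments was not tested.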

How the data were processed

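One peak list of 10 columns for 1 ac4C immunoprecipitation library and 1 input library was analysed. HISAT2 2.2.1, MACS3 3.0.0a7 and build mm10 are named per the submitters' processing notes, without roles; peak filters were not given in the sources used here. The fold enrichment (a ratio), the −log10 p and −log10 q, and an unused score were deposited by the authors. The largest q was 0.0499. Read totals were not used here.

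Summits were placed in spans of the RefSeq gene table (GRCm38.p6). Fragments and background at each summit were recovered as the whole number for which the fold enrichment (pseudocount 1) and the Poisson p-value both matched. A match within a relative 1e-05 was found for 21192 of 21192 peaks, with a second candidate in 0. The step was tested on simulated data. Intervals given with fold enrichments are 95% exact Poisson intervals, with the background taken as known. PCR copies are counted as fragments. The genes named were Gse1, the 4 next by summits, neighbours within 250 kb, the 5 nearest in span with a peak, and a list of CoREST complex genes, of which 1 planned member is not reported here. Of its peaks, the 5 highest and 3 lowest, the widest and the outermost were named by rule, with others added after their values were seen. The members and lists were chosen with earlier results of these data known. Without a genome or exon positions, placement in exons and base content of peaks were not analysed here. No p-values across peaks were calculated. Python 3.11.15 with scipy 1.17.1 and pandas 2.3.3 was used.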

Additional observations from a re-analysis of the deposited data

How the results depend on the processing

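The alternatives were another rule for membership, a q or fold limit, joining of close peaks and removal of 200 bp peaks. Values per stretch, and the fold enrichment without its pseudocount, were added after the data were seen. Of 103 values under alternatives, 77 stayed within 1.5 times the count or within the 95% interval of the value. That interval was a Wilson interval for the share in the fullest bin and one from the ranked peaks or distances for medians. Both treat the peaks of 1 gene as independent, which they are not. They serve here as a yardstick only, and a wide one for the last stretch, where the median of 10.41 had 5.369 to 19.99. Membership by overlap of at least 1 bp took in the same 69 peaks. All its values are thus among the 77, and those agreements were no test of stability. The summits in another gene and the peaks of 200 bp all lay in the middle stretch. Leaving either out thus could not change the values of the first and last stretches. A fold limit at the median of the list cannot remove a peak of at least 10-fold. The 77 therefore include further agreements that were fixed in advance, and their number does not measure stability. A −log10 q of at least 10 gave 15 peaks, 8312 bp covered, a median fold enrichment of 11.32, a median distance of 3658 bp, 66.67% of summits in the fullest of 10 equal bins, against 21.74%, and rank 21. Peaks at or above the median fold enrichment of the list gave 23 peaks, 12516 bp, 7.446, 4876 bp, 47.83% and rank 4. The fullest bin was bin 6 as reported and bin 10 under both of these limits, and also without the 200 bp peaks. Both limits remove weak peaks by construction. Joining peaks less than 500 bp apart gave a median width of 373 bp, also by construction. Without the pseudocount the median fold enrichment was 6.907, and by stretch 7.25, 6.35 and 15.6, with 3, 4 and 9 peaks of at least 10-fold. The 7 strong peaks of the last stretch became 5 when close peaks were joined. The middle stretch held 0 under the 6 alternatives that kept the pseudocount. That 0 was fixed in advance, because none of the 6 can raise a fold enrichment. No paired analysis was possible because each group had 1 library. Depth limits the precision of most peaks: the median interval ran from 58.7 to 161% of the value.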

Other observations

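Of 557 protein-coding genes with a span of at least 300 kb, 255 held a summit (45.8%), with a median of 3 summits where there was any and an upper quartile of 5.5. After Gse1, with 69, the most were found in Nav2 with 26 and Ttc28 with 25, genes named after their values were seen. Nav2 encodes a neuron navigator protein.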
